A study of Homo sapiens with 6 samples.

Results

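Interferon-stimulated genes were followed in a breast epithelial line that had become resistant to fluvastatin, a statin that blocks HMG-CoA reductase. The members are 42 genes chosen by name as well-known targets of interferon, out of 81496 gene symbols on the array, and all 42 were found. Each gene is represented by the probe set with the highest mean over the 5 arrays compared, and 39 of the 42 have 1 probe set only.

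The parental line MCF10.AT1 is an HRAS-transformed, preneoplastic derivative of MCF10A human breast epithelium, labelled as untreated and fluvastatin sensitive. The resistant line MCF10.AT1-R was selected from it in fluvastatin raised stepwise from 1 to 5 and up to 20 µM, and the labels carry this treatment text for both lines. It is 1 derived line, so the comparison is between these cultures. Whether fluvastatin was present when RNA was taken, and whether the line is a clone, is not given in the sources used here. Total RNA was hybridised to Clariom D arrays, 3 for each line, and all values below are log2 RMA values as the authors deposited them.

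Array A03 of MCF10.AT1, which the study removed, correlated with the other 5 arrays at 0.779 to 0.795, against 0.967 to 0.977 among those 5, and is shown apart. The lines were therefore compared over A01 and A02 against B02, B03 and B04. A log2 value of 2.99, the 95th percentile of 612 negative control probe sets, marks the level at which a signal could not be told from background. Keratin genes of basal breast epithelium were above that level on all 5 arrays, with KRT6A between 8.93 and 10.81. They were not steady between the lines. KRT17 read 6.56 and 6.56 in MCF10.AT1 and 10.61, 10.57 and 10.73 in MCF10.AT1-R, and KRT14 read 5.94 and 5.85 against 8.20, 8.08 and 8.52. In bulk RNA, fewer expressing cells and less RNA per cell cannot be told apart.

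Interferons are secreted proteins that cells release on sensing viral nucleic acid. Type I and type III interferons bind their receptors, the kinases JAK1 and TYK2 activate STAT proteins, and these join IRF9 in the complex ISGF3. ISGF3 binds the interferon-stimulated response element, ISRE, in the promoters of many genes, whose products sense, trap or degrade viral RNA and proteins. Many of these genes are transcribed at a low level without interferon, and epithelial cells are among the cells that express them.

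The promoter stretches of 7 genes are shown because ISRE letters close to the start are what most of these genes share. The sequences are those of RefSeq on build GRCh38.p14, written 5′ to 3′ on the strand of the gene, and capitals mark GAAANNGAAA or its reverse complement. IFI27, ISG15 and DDX58 are the genes past the threshold, ISG20 and SAMD9 lay just outside it, and IFIT1 and IFITM3 have low and high expression in both lines. The stretches are chr14:94110601-94110690 (plus strand) for IFI27, chr1:1013350-1013439 (plus) for ISG15, chr9:32526197-32526286 (minus) for DDX58, chr15:88638907-88638996 (plus) for ISG20, chr7:93118066-93118155 (minus) for SAMD9, chr10:89392480-89392569 (plus) for IFIT1 and chr11:320861-320950 (minus) for IFITM3.
IFI27: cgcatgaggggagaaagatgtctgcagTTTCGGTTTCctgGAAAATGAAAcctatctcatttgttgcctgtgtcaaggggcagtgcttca
ISG15: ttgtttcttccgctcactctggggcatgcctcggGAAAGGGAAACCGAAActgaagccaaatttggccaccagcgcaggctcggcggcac
DDX58: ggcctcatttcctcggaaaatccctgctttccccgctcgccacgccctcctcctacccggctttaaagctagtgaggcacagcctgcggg
ISG20: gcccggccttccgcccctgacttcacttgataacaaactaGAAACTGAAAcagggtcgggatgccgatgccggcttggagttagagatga
SAMD9: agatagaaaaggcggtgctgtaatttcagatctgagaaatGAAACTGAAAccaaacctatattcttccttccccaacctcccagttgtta
IFIT1: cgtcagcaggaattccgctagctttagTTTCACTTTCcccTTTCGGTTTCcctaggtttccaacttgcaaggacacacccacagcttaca
IFITM3: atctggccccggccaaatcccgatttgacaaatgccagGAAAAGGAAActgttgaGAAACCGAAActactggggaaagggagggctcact

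Of the 42 genes, 33 were matched to RefSeq promoter windows of 300 bases, 250 before and 50 after the start. GAAANNGAAA was searched on both strands and lay in a window of 23 of the 33 genes, or 69.7%, against 4.38% of all 27305 genes with windows of that length. In 13 of the 23 a window held 2 or more matches, and those of ISG15 share bases with each other. TTCNNNGAA, the letters of the STAT-binding GAS element and its own reverse complement, lay in windows of 10 genes, or 30.3%, against 9.38% of all genes. Both motifs were found in 6 genes, and in 5 of these they share bases. DDX58 had neither in its window, which says only that these letters are not there. The median log2 difference between the lines was 0.46 over the 23 genes with GAAANNGAAA and 0.25 over the 10 matched genes without it, with ranges of -1.01 to 1.93 and -0.41 to 1.09. These medians are a description, and the ranges overlap widely.

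Most interferon-stimulated genes were somewhat higher in MCF10.AT1-R, and 3 of them rose past the threshold. The difference was positive for 33 of the 42 genes and negative for 9. Its median was 0.35, with the middle 50% of genes between 0.15 and 0.61, while the median over all 81496 gene symbols was 0.005. Of the 42 genes, 35 passed the filters on low and invariant probe sets, 4 were removed as invariant and 3 for low expression. In limma, IFI27, ISG15 and DDX58 were higher in MCF10.AT1-R at an FDR of 5%, and none was lower. By comparison 0.758% of all probe sets tested were called higher and 0.447% lower. With 1 probe set for each gene symbol, as for the 42 genes, these shares were 1.01% and 0.509%. At an unadjusted p under 0.05, 11 of the 35 were higher and 1 was lower, against 3.98% and 4.27% of all probe sets tested.

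**Figure D1:**
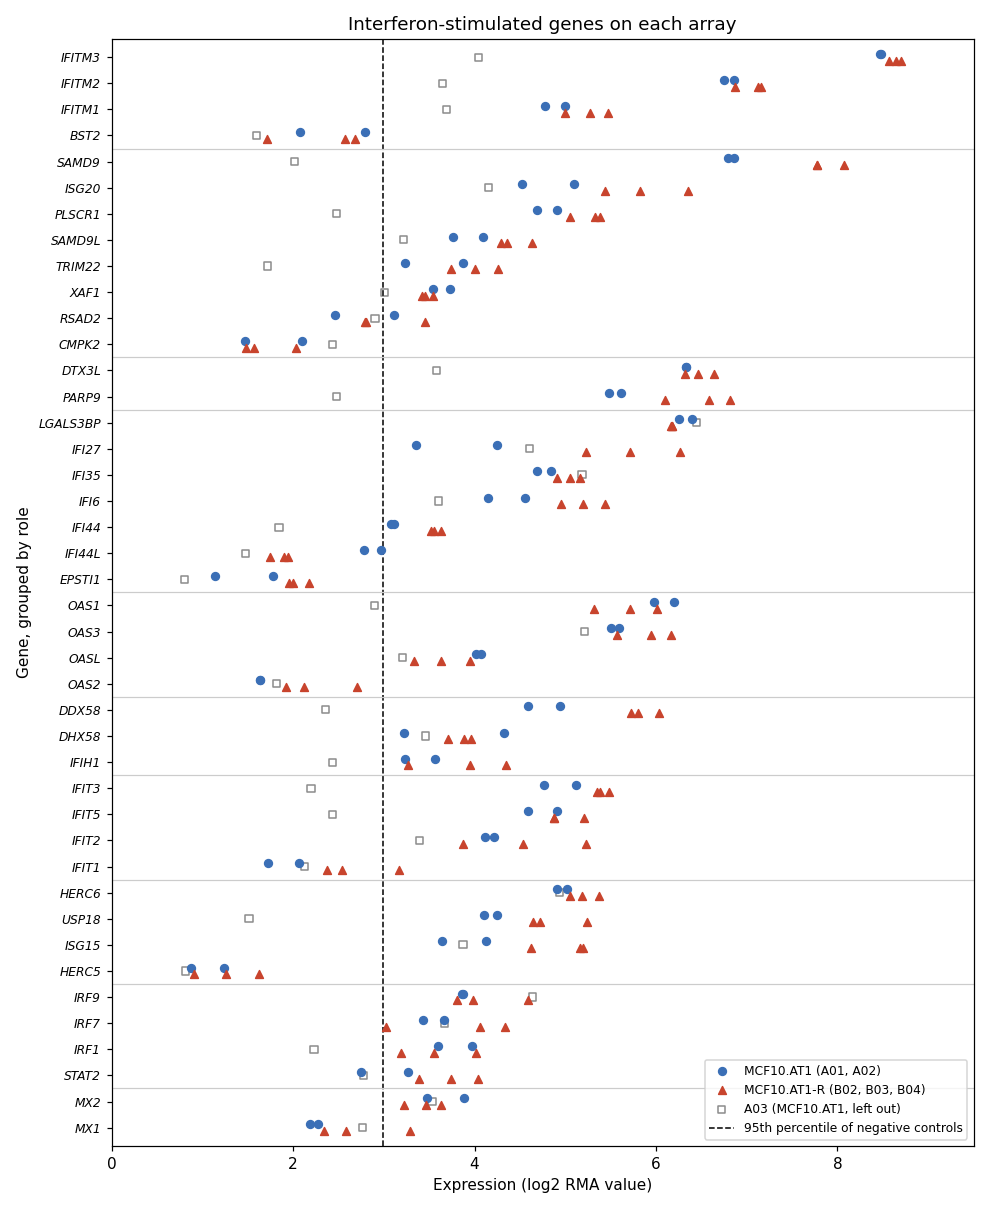
Expression of the 42 interferon-stimulated genes (log2 RMA value, x axis) on each array, with genes grouped by role (y axis). Circles are MCF10.AT1 arrays, triangles MCF10.AT1-R arrays, open squares array A03, and the dashed line is the 95th percentile of the negative controls at 2.99. IFITM3 is the brightest gene in both lines, and IFI27, ISG15, DDX58, ISG20 and SAMD9 have all triangles to the right of both circles.

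For 22 genes, or 52.4%, every resistant array exceeded both parental arrays, and for 4 every resistant array was lower. Over all gene symbols these orders held for 12.8% and 11.9%. Among the 32 genes above 2.99 on all 5 arrays 17 lay above, or 53.1%, and 3 lay below. Among the 23867 gene symbols above that level on all 5 arrays the shares were 17.2% and 15.7%. The difference was smaller than 0.5 in either direction for 27 of the 42 genes.

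IFI27, a mitochondrial and nuclear membrane protein used clinically as a marker of interferon exposure, showed the largest difference of the 42. It read 4.25 and 3.35 on the MCF10.AT1 arrays and 5.23, 5.71 and 6.27 on the MCF10.AT1-R arrays (probe set TC1400008056.hg.1). The means were 3.80 ± 0.63 (SD, n = 2) and 5.73 ± 0.52 (SD, n = 3), a difference of 1.93 (standard error 0.31, adjusted p = 2.83e-07 from limma). Its arrays did not overlap, but they varied among themselves more than those of most genes, with a residual SD of 0.56 against the common SD of 0.34 used in the test. Without A02 the difference was 1.48 and IFI27 no longer passed (adjusted p = 0.0559 from limma). When only low expression was filtered, and limma no longer shared 1 variance among all probe sets, its adjusted p was 0.158.

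ISG15 is a ubiquitin-like protein that is conjugated to newly made proteins and is also secreted. It read 4.13 and 3.64 in MCF10.AT1 and 5.16, 4.62 and 5.19 in MCF10.AT1-R (TC0100006483.hg.1). It rose by 1.11 (standard error 0.31, adjusted p = 0.0356 from limma), a 2.15-fold difference. The lines did not overlap, but ISG15 was not called without A01, A02, B02 or B04 (adjusted p = 0.114, 0.804, 0.159 and 0.173 from limma). USP18, the protease that removes ISG15 and restrains the type I receptor, read 4.25 and 4.11 against 5.24, 4.72 and 4.64, without overlap, a difference of 0.69 (adjusted p = 0.481 from limma). HERC5 and HERC6 are related ligases, of which HERC5 attaches ISG15 in human cells. HERC6 read 5.02 and 4.91 against 5.37, 5.05 and 5.19, a difference of 0.24, and HERC5 lay under 2.99 on all 5 arrays.

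DDX58 encodes RIG-I, the cytoplasmic sensor of viral RNA with a free triphosphate end. It read 4.59 and 4.95 in MCF10.AT1 and 6.03, 5.73 and 5.80 in MCF10.AT1-R (TC0900009825.hg.1). All resistant arrays lay clear of both parental arrays, and DDX58 rose by 1.09 (standard error 0.31, adjusted p = 0.0426 from limma), a 2.12-fold difference. It was not called without A01, A02, B02 or B04 (adjusted p = 0.667, 0.202, 0.186 and 0.0902 from limma). The other RIG-I-like receptors overlapped between the lines. IFIH1, or MDA5, which senses long double-stranded RNA, differed by 0.45, and DHX58, or LGP2, a regulator of both sensors, differed by 0.08. Both lay above the negative controls on all 5 arrays.

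ISG15 and DDX58 sat close to the threshold, as did 2 genes just outside it. ISG20, an exonuclease that degrades single-stranded RNA, read 4.52 and 5.09 against 6.35, 5.44 and 5.83, a difference of 1.07 (adjusted p = 0.0507 from limma). SAMD9, a cytoplasmic restriction factor for poxviruses that also restrains growth, read 6.86 and 6.79 against 8.07, 7.78 and 7.78, a difference of 1.05 (adjusted p = 0.0593 from limma). Among the genes with a difference above 1, SAMD9 was the brightest and had the closest replicates, with a residual SD of 0.14. The common SD of 0.34 gives no credit for that. Once limma let the variance depend on mean expression SAMD9 was called (adjusted p = 8.35e-09 from limma with the trend option). That fit set the variance by brightness and gave no weight to the gene's own spread either. Its own spread counted with the low-expression filter alone, where the adjusted p from limma was 0.124, and 0.000507 with the trend option added. With the trend option on the main filters 6 genes were called higher, DDX58, IFI27, ISG15, ISG20, PARP9 and SAMD9, against 1.69% of all probe sets tested. With the low-expression filter alone none of the 42 was called by limma, against 0.217% of probe sets called higher. At an unadjusted p under 0.05, 15 were then higher and 1 was lower, against 4.33% and 4.43% of probe sets.

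**Figure D2:**
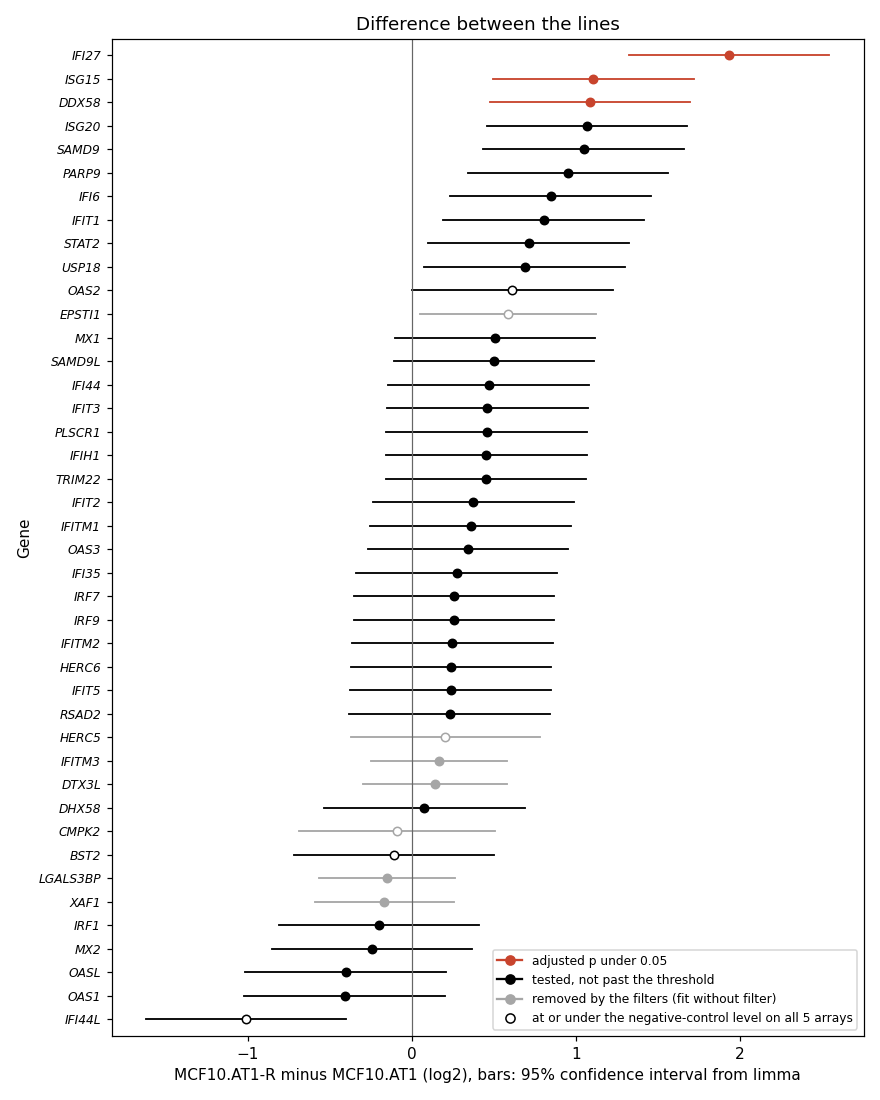
Difference between the lines (MCF10.AT1-R minus MCF10.AT1, log2, x axis) for the 42 genes (y axis), with bars for the 95% confidence interval from limma. Red marks the 3 genes past the FDR threshold, grey the 7 genes removed by the filters and taken from the fit without a filter, and open circles genes at or under the negative-control level on all 5 arrays. The differences run from -1.01 for IFI44L, at background, to 1.93 for IFI27.

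Neighbouring members differed between the lines by unequal amounts. SAMD9L, the paralog that lies beside SAMD9 on chromosome 7, read 4.10 and 3.76 against 4.36, 4.63 and 4.29, a difference of 0.50 without overlap (adjusted p = 0.739 from limma). PARP9 and DTX3L are neighbours on chromosome 3 whose products form 1 complex, an ADP-ribosyltransferase and a ubiquitin ligase that act in interferon signalling and DNA repair. PARP9 read 5.48 and 5.62 against 6.82, 6.10 and 6.58, a difference of 0.95 with all resistant arrays above (adjusted p = 0.125 from limma). DTX3L read 6.33 and 6.33 against 6.46, 6.32 and 6.64, a difference of 0.14 with arrays that overlapped. Whether the differences of these neighbours differ from each other was not tested.

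The 4 IFIT genes, which bind viral RNA that lacks host cap methylation or block translation, lie together on chromosome 10. IFIT3 was the brightest, at 5.12 and 4.77 against 5.48, 5.38 and 5.35, a difference of 0.46 without overlap (adjusted p = 0.774 from limma). IFIT1 read 2.06 and 1.72 against 3.17, 2.54 and 2.38. Only 1 of its 5 values, on B02, exceeded the negative-control level, so its fitted difference of 0.80 (adjusted p = 0.300 from limma) rests mostly on background signal, and with lower values raised to that level it was 0.06. IFIT2 and IFIT5 overlapped between the lines, with differences of 0.38 and 0.24. None of the 4 passed.

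The OAS enzymes make 2′-5′ oligoadenylates that switch on RNase L, and OASL is a family member without that activity which assists RIG-I. Their differences had both signs. OAS1 was the brightest, at 6.20 and 5.97 against 6.01, 5.32 and 5.71, a difference of -0.41 (adjusted p = 0.807 from limma). OASL differed by -0.40, with all 3 resistant arrays below both parental arrays, and OAS3 differed by 0.34 with overlap. OAS2 read 1.63 and 1.63 against 2.12, 1.92 and 2.70, all under 2.99, so its fitted difference of 0.61 rests on background signal. The 3 genes OAS1, OAS3 and OAS2 follow each other on chromosome 12.

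The IFITM proteins block the fusion of enveloped viruses with endosomal and surface membranes, and 2 of the 3 were among the brightest of the 42 genes. IFITM3 read 8.47 and 8.48 against 8.57, 8.65 and 8.70, a difference of 0.17, and was removed as invariant. IFITM2 and IFITM1 differed by 0.25 and 0.36, and in all 3 genes the resistant arrays lay above both parental arrays. For IFITM1 this order was nearly a tie, at 4.9934 on B02 against 4.9932 on A01. The sequences of these related genes were not compared here, so how far their probes separate them is not known. BST2, or tetherin, which holds budding virions at the cell surface, lay under 2.99 on all 5 arrays.

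The dynamin-like GTPases MX1 and MX2, which trap viral nucleocapsids, were low. MX2 read 3.88 and 3.47 against 3.63, 3.47 and 3.22, with overlap and a difference of -0.24. MX1, often used as a marker of type I and type III interferon, read 2.19 and 2.27 against 3.29, 2.34 and 2.58. Of the MX1 values only that of B02 exceeded the negative-control level, and its fitted difference of 0.51 (adjusted p = 0.733 from limma) was 0.10 with lower values raised to that level.

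The members of the transcription machinery showed no call. STAT2 read 3.27 and 2.75 against 3.74, 3.38 and 4.03, a difference of 0.71 without overlap (adjusted p = 0.440 from limma). IRF9, its DNA-binding partner in ISGF3, read 3.88 and 3.86 against 4.59, 3.99 and 3.81, a difference of 0.26 with overlap. IRF7, which drives interferon-alpha genes, and IRF1, which can act without STAT proteins, differed by 0.26 and -0.20 with overlap. The resistant IRF7 values were spread from 3.02 to 4.33, more widely than the lines were apart.

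Among the other genes with IFI names, IFI6, a mitochondrial and ER protein that protects cells from death, read 4.56 and 4.14 against 5.44, 4.96 and 5.19. Its arrays did not overlap and the difference was 0.85 (adjusted p = 0.243 from limma). IFI35 and IFI44 lay above without overlap, with differences of 0.27 and 0.47. IFI44L, the neighbour of IFI44 on chromosome 1, read 2.97 and 2.78 against 1.74, 1.90 and 1.95. Although its fitted difference was -1.01 (adjusted p = 0.0795 from limma), all 5 values were within the range of the negative controls, so no fold is given. LGALS3BP, a secreted glycoprotein, read 6.40 and 6.25 against 6.16, 6.18 and 6.17, a difference of -0.15, and was removed as invariant. EPSTI1 read 1.78 and 1.13 against 1.99, 1.96 and 2.18, all at background.

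Of the remaining effectors, PLSCR1, a phospholipid scramblase, lay above without overlap with a difference of 0.46, and TRIM22, a nuclear antiviral ligase, overlapped with a difference of 0.45. XAF1, a pro-apoptotic protein, differed by -0.17 with all resistant arrays below. RSAD2, or viperin, exceeded the negative controls on 2 of the 5 arrays, and CMPK2, its neighbour on chromosome 2, on none. In all, 6 of the 42 genes were under 2.99 on every array compared, BST2, CMPK2, EPSTI1, HERC5, IFI44L and OAS2, and 4 more were above it on some arrays only.

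The resistant arrays differed among themselves. Against the MCF10.AT1 mean, the median over the 42 genes was 0.44 on B02, 0.27 on B03 and 0.36 on B04, while the median over gene symbols above the negative controls was 0.009, -0.03 and 0.02. B02 was the highest resistant array for 20 genes and B03 for 5, and B03 was the lowest for 22. IFIT1, IFIT2, IFIH1, MX1, ISG20, IRF9 and USP18 were highest on B02, whereas IFI27 was lowest there. Of the 42 genes, 30 on B02, 27 on B03 and 28 on B04 were above both MCF10.AT1 arrays. The number called depended on these arrays: without B03, 5 genes were called higher, DDX58, IFI27, ISG15, ISG20 and PARP9, against 0.771% of probe sets tested. IFI27 alone was called without B02, without B04 and without A01, against 0.635%, 0.59% and 0.419%. Without A02 limma called none, against 0.305%. At an unadjusted p under 0.05, 6 were then higher and 1 lower, against 2.54% and 3.15% of probe sets. With other settings on the 5 arrays, the share of probe sets called higher was 0.105% without any filter and 0.481% with the negative-control level as the filter, each with 0 of the 42 called by limma. At an unadjusted p under 0.05 these settings had 15 of 42 and 13 of 36 tested genes higher, against 3.27% and 6.16% of probe sets. The share called higher was 0.752% after a further quantile normalization, with 2 of the 42 called, 0.76% with probe sets of a gene averaged, with 4 called, and 1.13% with the trend option and the low-expression filter alone, with 5 called.

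**Figure D3:**
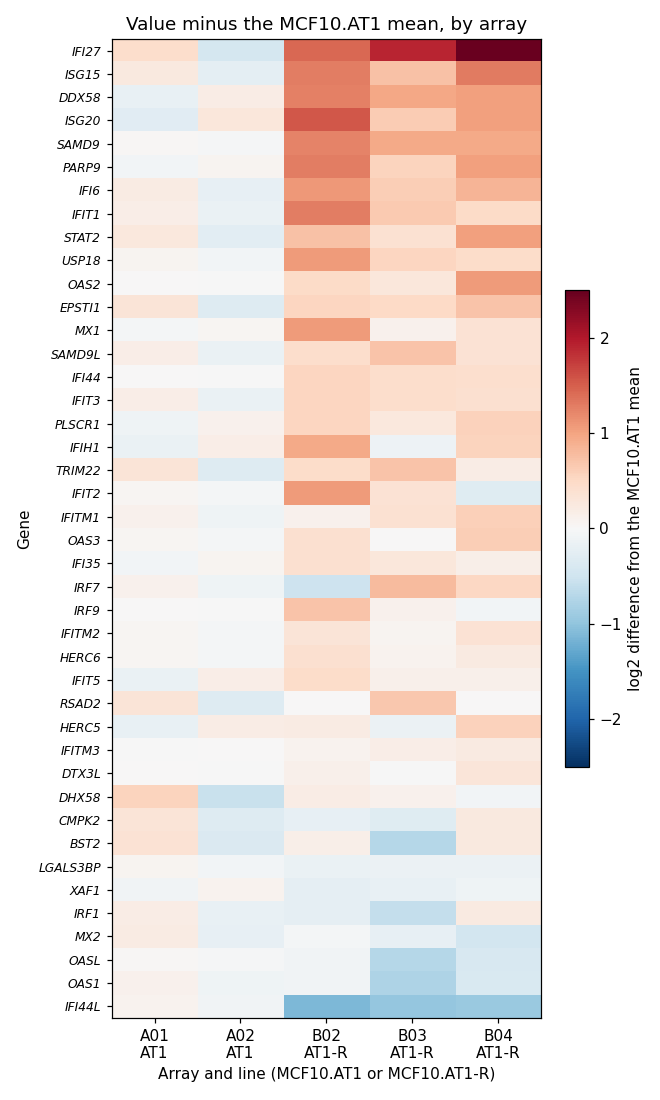
Value on each of the 5 arrays (x axis) minus the MCF10.AT1 mean (colour, log2) for the 42 genes (y axis), ordered by the difference between the lines. The top genes are red on all MCF10.AT1-R arrays, with IFI27 darkest on B04 and ISG20, IFIT1, IFIT2 and MX1 darkest on B02.

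On A03, 27 of the 42 genes were lower than on every other array, and the median of the 42 was 2.90 against 3.81 to 4.79 on the others. SAMD9 read 2.02 there and IFITM3 4.04, while IFI27 at 4.61 and ISG15 at 3.87 stayed below all resistant arrays. When A03 was included in the parental group, the 42 genes had a median difference of 0.73 and none was called by limma, against 0.0447% of probe sets tested. At an unadjusted p under 0.05, 9 were then higher and 0 lower, against 1.53% and 1.89% of probe sets. The difference of OAS1 then became 0.66.

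The other genes of the pathway were taken from 6 lists, 56 genes in all, and all were measured. Of these, 33 passed the filters and 2 were called higher by limma, JAK1 and TICAM1, against 0.758% of all probe sets tested and 1.01% of gene symbols. None was called lower, and at an unadjusted p under 0.05 there were 3 higher and 0 lower, against 3.98% and 4.27% of probe sets. The median difference of the 56 genes was 0.14, and 16 of the 56 lay above and 6 below without overlap, against 12.8% and 11.9% of all gene symbols. Without B02 limma called JAK1 alone, against 0.635% of probe sets called higher. The fits without A01 or without A02 had 1 MCF10.AT1 array left. Their calls are not given for these 56 genes, so the calls of JAK1 and TICAM1 are not shown to hold without either array.

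Of the 12 interferon ligand genes 6 were under 2.99 on all 5 arrays, and 4 were above it on all 5, IFNE, IFNL1, IFNL2 and IFNL3. IFNB1 was among the 6, at 1.76 and 2.13 against 1.66, 2.18 and 1.75. IFNE, a type I interferon made constitutively by epithelium of the reproductive tract, was the brightest, at 6.51 and 6.86 against 6.03, 6.35 and 6.38. All resistant arrays lay below both parental arrays, a difference of -0.43 (adjusted p = 0.793 from limma). No ligand gene was called by limma, with 0 of the 7 tested at an unadjusted p under 0.05.

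None of the 6 receptor genes was called by limma, with 0 of the 4 tested at an unadjusted p under 0.05. IFNGR2, the second chain of the interferon-gamma receptor, was the brightest, at 8.29 and 8.26 against 7.91, 7.92 and 8.20, a difference of -0.26. JAK1, the kinase shared by the receptors of all 3 interferon types, was 8.15 and 8.07 in MCF10.AT1 and 9.41, 9.36 and 9.40 in MCF10.AT1-R (TC0100014457.hg.1). It rose by 1.28 (standard error 0.31, adjusted p = 0.00583 from limma), far more than the arrays of either line differed. JAK1 also serves many cytokine receptors.

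Of 13 genes that sense nucleic acid or signal upstream of interferon, TICAM1 was called, the adaptor that carries the signal of TLR3. It read 3.58 and 3.13 against 4.78, 4.47 and 4.39, a difference of 1.19 (standard error 0.31, adjusted p = 0.0159 from limma). On A03, TICAM1 read 4.45, within the range of the resistant arrays. TLR3 itself read 4.09 and 3.59 against 3.42, 2.87 and 3.43, all resistant arrays below, a difference of -0.60 (adjusted p = 0.621 from limma). IRF3, the factor that these sensors activate to transcribe interferon genes, read 3.91 and 3.93 against 4.69, 4.83 and 4.96, all resistant arrays above, a difference of 0.91 (adjusted p = 0.168 from limma). TRIM25, the ligase that assists RIG-I, was the brightest and nearly level, at 8.96 and 9.05 against 9.02, 8.91 and 8.99. No negative regulator and no interferon-gamma-induced gene was called by limma, with 0 of 7 and 0 of 3 tested at an unadjusted p under 0.05. The genes with the highest level in these lists were PIAS1, an inhibitor of STAT signalling, and WARS, a tRNA synthetase, and these differed by 0.15 and 0.24 between the lines. Of the 13 interferon-gamma-induced genes, 6 were at background on all 5 arrays.

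**Figure D4:**
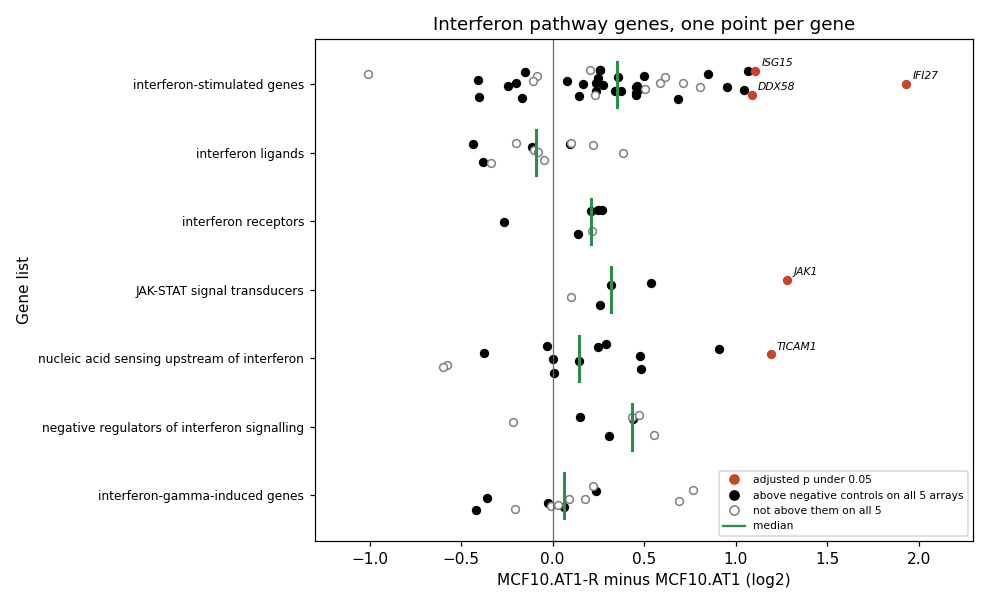
Difference between the lines (MCF10.AT1-R minus MCF10.AT1, log2, x axis) for the 42 interferon-stimulated genes and the 56 genes of 6 pathway lists (y axis), 1 point for each gene. Red points passed the FDR threshold, filled points lay above the negative controls on all 5 arrays, and green bars are medians. The medians run from -0.09 for the ligands to 0.43 for the negative regulators, and IFI27, ISG15, DDX58, JAK1 and TICAM1 are red.

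Markers of other cell types were read beside these values. Summed over 10 leukocyte markers, the log2 values lay between 25.6 and 26.7 in MCF10.AT1 and between 25.7 and 27.9 in MCF10.AT1-R, with PTPRC, the pan-leukocyte marker CD45, under 2.99 on all 5 arrays. Over 5 markers of plasmacytoid dendritic cells, the main makers of interferon in blood, the sums were 16.7 to 17.3 and 16.5 to 17.0, and CLEC4C, their defining marker, was under 2.99 on all 5 arrays. In that list TCF4 and GZMB, which other cell types also express, were above 2.99 on all 5 arrays, with differences of -0.44 and 0.43. Over 7 fibroblast markers the sums were 30.2 to 30.7 and 27.6 to 28.7, and over 5 endothelial markers 15.8 to 16.0 and 14.1 to 14.8. The lower sums came from 1 gene in each list, DCN with a difference of -2.15 and PECAM1 with -1.12. The other fibroblast markers differed by -0.16 to 0.15 and the other endothelial markers by -0.23 to 0.01. Above 2.99 on all 5 arrays were 4 of the 10 leukocyte, 3 of the 7 fibroblast and 2 of the 5 endothelial markers, and 5, 2 and 2 were above it on none. The 3 fibroblast markers were COL1A1, COL1A2 and COL3A1, with means of 7.12, 6.07 and 4.44 over the 5 arrays. Which cells gave these signals was not tested. CD14, DCN and PECAM1 were called lower in MCF10.AT1-R, 1 in each of the leukocyte, fibroblast and endothelial lists. Of these lists 6, 2 and 2 genes were tested, and 0.447% of all probe sets tested were called lower. CD14 was not called when any 1 array was left out, nor PECAM1 when any array but B04 was. The 8 basal epithelial markers summed to 55.3 and 56.2 in MCF10.AT1 and to between 70.1 and 70.9 in MCF10.AT1-R. Of these 8, 6 were called higher, against 0.758% of all probe sets tested. The part of this shift in the differences of the interferon-stimulated genes was not tested.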

How the data were processed

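Clariom D arrays measured total RNA of both lines, 3 arrays per line. The authors deposited log2 values made by RMA with the Bioconductor packages affy and oligo, unfiltered, for 135750 transcript and 2995 control probe sets. Versions and genome build are not given in the sources used here. Lines were assigned to arrays from the study's own labelling of array names, which gives no replicate number. RMA quantile-normalizes the arrays, so a shift shared by all genes would not be seen.

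Over the 5 arrays kept by the study, probe sets with a mean above the median (1.88) and an SD above the lowest 25% (0.18), limits chosen here, were fitted with lmFit and eBayes (limma 3.58.1, R 4.3.3). Benjamini-Hochberg adjustment ran over all 51457 probe sets, with a threshold of FDR 5%. After this filter limma used a common SD of 0.34, which is lenient for variable genes and strict for stable ones. Genes removed by the filter were taken from the fit without it.

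The members and lists were chosen with earlier results of these data known. Values on every array are given for members past the threshold, for members with a difference of at least 0.5 and no overlap, and for the brightest of each role. Genes of the pathway lists were named where called or the brightest of their list. The rule also held 1 gene by name, which is not reported here. IFNB1, TLR3, IRF3 and the remaining genes named outside this rule were chosen after their values were seen. Nothing says how far replicate arrays of a line are independent beyond the label of biological replicates. The number of arrays limits the precision. Alternatives changed the arrays, filters, variance model, normalization, probe sets per gene and background floor.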

Additional observations from a re-analysis of the deposited data

How the results depend on the processing

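With A03 added, with the low-expression filter alone, with no filter and with the negative-control floor, limma called 0 of the 42 genes higher. In these settings 35, 39, 42 and 36 of the genes were tested, and 0.0447%, 0.217%, 0.105% and 0.481% of probe sets were called higher. At an unadjusted p under 0.05, 9, 15, 15 and 13 were higher, against 1.53%, 4.33%, 3.27% and 6.16% of probe sets. The trend option gave 6 called higher, against 1.69% of probe sets, and that option with the low-expression filter alone gave 5, against 1.13%. Leaving out 1 array gave 0 to 5 called higher, and the median difference then lay between 0.27 and 0.41. With A03 added the median was 0.73. Quantile normalization again left 2 genes called, without DDX58, against 0.752% of probe sets. Averaging the probe sets of a gene gave 4, with ISG20, against 0.76%. Among the 56 other pathway genes, 0 were called higher with A03 added and 0 with no filter. With the low-expression filter alone 1 (JAK1) was called, and 1 (JAK1) with the negative-control floor. The trend option with the low-expression filter alone gave 4. These counts stand beside the same shares of probe sets as above. Leaving out B02, B03 or B04 gave 1, 2 and 2 called higher, against 0.635%, 0.771% and 0.59%. For these pathway genes the fits without A01 or without A02 are not counted here. OAS1 reversed to 0.66 with A03 added. The cause of these changes was not tested. Each left-out fit also had fewer arrays. No paired analysis was possible because the array names carry no replicate number. With the remaining MCF10.AT1 array alone, its spread was assumed to equal that of MCF10.AT1-R. Values under 2.99 limit what can be said of the dimmest genes.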
